A study of Mus musculus with 6 samples.

Results

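The genes that make, bind and break down hyaluronan were followed in stimulated primary cells labelled as osteocytes. They were chosen by gene symbol from the deposited count table and were 10 of its 56748 genes, namely the synthases *Has1*, *Has2* and *Has3*, the hyaluronidases *Hyal1* and *Hyal2*, the depolymerases *Cemip* and *Cemip2*, the receptor *Cd44*, and the binding proteins *Tnfaip6* and *Vcan*. Bulk RNA sequencing had given 6 libraries of cells from the long bones of mice. The released cells had been kept in culture for a week together with the digested bone pieces. Of the 6 libraries, 3 came from WT mice and 3 were labelled cKO, an osteocyte-specific knockout of *Gsdmd*. It combines *Gsdmd* fl/fl alleles with a Cre recombinase driven by the *Dmp1* promoter. The cells of every library, WT included, had received lipopolysaccharide (LPS) at 10 ng/mL for 3 h. Aluminum hydroxide at 20 µg/mL followed for a further 3 h, so each comparison is between genotypes under stimulation. The study methods name C57BL/6 mice as the source of primary osteocytes and state an age for them. The labels give neither the age nor the sex of the donors. Nothing in them says whether the 3 libraries of a genotype came from separate mice or separate cultures. The p-values therefore measure the spread between these libraries, which may be technical.

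Hyaluronan is a long unbranched polysaccharide of glucuronic acid and N-acetylglucosamine. It is polymerised at the plasma membrane by the HAS enzymes from UDP-sugars and passed directly into the pericellular space, where CD44 and proteoglycans of the versican and aggrecan family hold it in place. Its turnover begins outside the cell with CEMIP, CEMIP2 and HYAL2 and ends in the lysosome with HYAL1 and exoglycosidases. In the joint it forms the backbone of aggrecan aggregates in cartilage and gives synovial fluid its viscosity.

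The library totals lay between 39566835 and 49734046 counts. *Gsdmd*, the targeted gene, was counted 609, 699 and 549 times in WT and 885, 937 and 1045 times in the libraries labelled cKO, a log2 fold change of 0.69 (adjusted p = 2.27e-06, edgeR quasi-likelihood test), which goes against the label. The count pools all exons of the gene, so the floxed exons were not measured apart, and every direction below rests on the label. The groups also differed in sex-linked transcripts: *Xist* reached 4 counts at most in WT and at least 44817 in the libraries labelled cKO, and *Ddx3y* was at 0 in all 3 of the latter. Genotype and the sex of the donors therefore cannot be told apart in any value given here. Of 6 osteocyte markers only *Pdpn* had enough counts to be tested. *Sost* was at 0 in every library, *Mepe* reached 2 counts and *Dmp1*, whose promoter drives the Cre, reached 6. These markers thus do not bear out the osteocyte label. All 14 macrophage markers were higher in the libraries labelled cKO, with a summed level of 1201 to 1353 counts per 1000000 (CPM) in WT and 6362 to 6673 CPM in the libraries labelled cKO. Of 10 fibroblast markers 4 were higher and 5 lower. Among all tested genes 20.1% were higher and 19.2% lower. In bulk samples, fewer cells of a type and less RNA per cell cannot be told apart.

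Of the 10 hyaluronan genes, all of which had enough counts to be tested, 7 passed at an adjusted p-value below 0.05, against 39.3% of all 17146 tested genes. They were 5 genes with a higher and 2 with a lower level in the libraries labelled cKO, where 20.1% and 19.2% of all tested genes went in these directions. With a log2 fold change of at least 1 in size required as well, 0 were higher and 1, *Has2*, was lower, against 6.56% and 4.64% of all tested genes. WT and cKO values stood entirely apart for 8 of the 10 genes, where the share over all tested genes was 49.2%. The median log2 fold change of the 10 genes was 0.21 and the median over all tested genes was 0.01. The median size regardless of sign was 0.26 for the 10 and 0.25 for all. These differences had no common direction: *Has2* fell 3.08-fold while the depolymerases *Cemip* and *Cemip2*, the receptor *Cd44*, the cross-linking factor *Tnfaip6* and the minor synthase *Has1* rose between 1.12-fold and 1.48-fold.

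**Figure D1:**
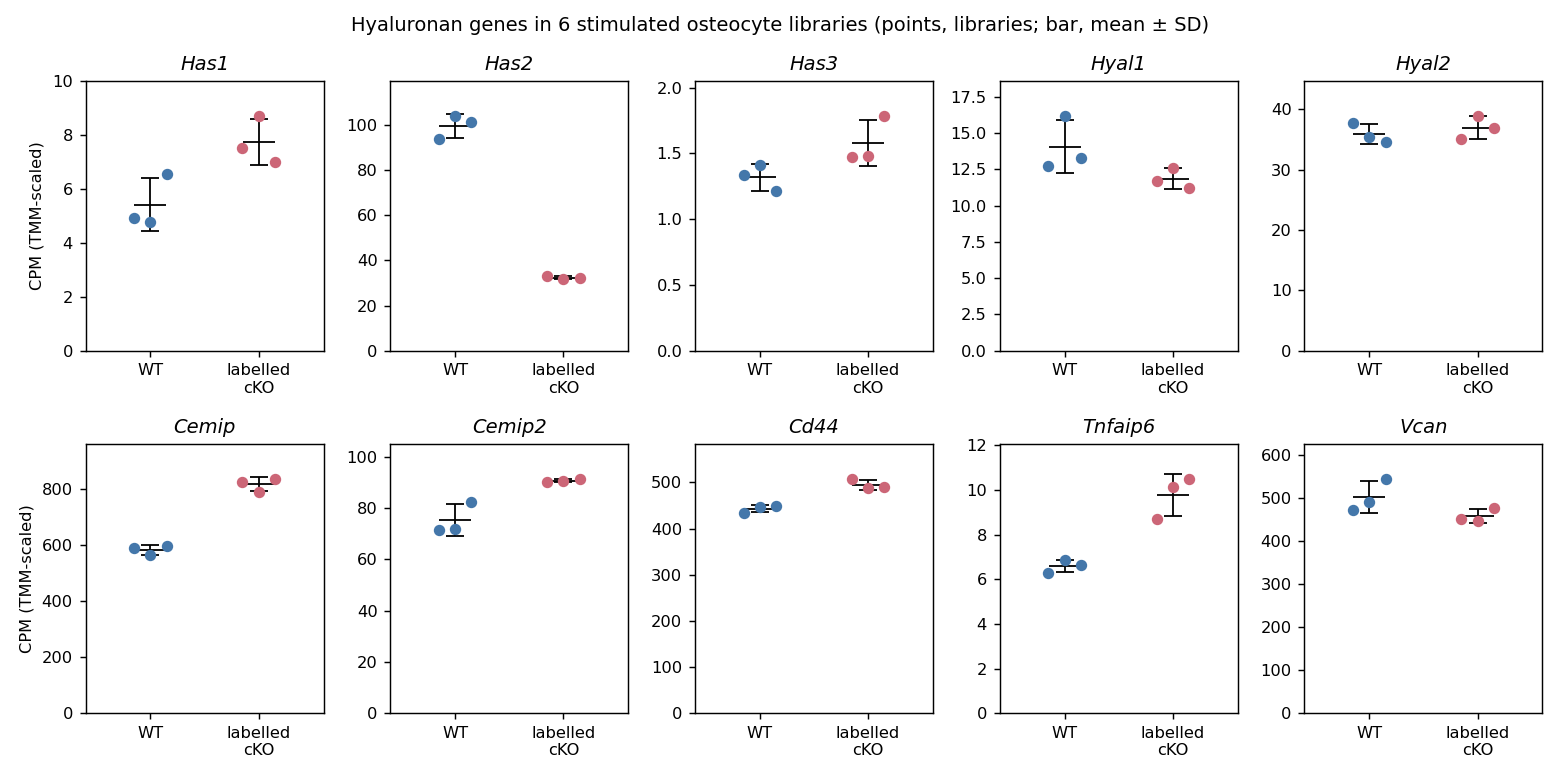
Level of each of the 10 hyaluronan genes in CPM (y axis from 0, scale differing between panels) in the 3 WT libraries and the 3 libraries labelled cKO, with one point per library and the mean ± SD. *Has2* lies between 93.5 and 104 CPM in WT and between 31.7 and 33.2 CPM in the libraries labelled cKO, whereas the points of *Hyal2* and *Vcan* overlap between the groups.

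*Has2* encodes the synthase that makes most hyaluronan in mesenchymal cells. It lies on chromosome 15 of GRCm39 (mm39) from 56529023 to 56557935. It stood at 93.5, 104 and 101 CPM in the WT libraries and at 33.2, 31.7 and 32.1 CPM in the libraries labelled cKO. Every WT library was nearly 3 times as high as any library labelled cKO, and the spread within each genotype was small beside that gap. The means were 99.6 ± 5.39 and 32.3 ± 0.806 CPM (SD, n = 3 each), and the log2 fold change was -1.62 (adjusted p = 9.06e-14, edgeR quasi-likelihood test; standard error 0.0545). By p-value *Has2* ranked 164 of the 17146 tested genes, and by the size of its change 1182. Ratios of *Has2* to each of the 10 fibroblast markers in the same library were taken on the scale of CPM per kilobase of gene length. All 10 mean ratios were lower in the libraries labelled cKO, at 0.115 to 0.902 of the WT value. That direction follows from the fold changes, as no fibroblast marker fell as far as *Has2*. The largest fall among them was 2.72-fold, for *Twist2*. The groups did not overlap for 8 of the 10 ratios, among them those to *Pdgfra*, a receptor of stromal cells (0.472 in WT and 0.113 in the other group), and to *Dcn*, a stromal proteoglycan (0.0775 and 0.0296). They overlapped for *Twist2* (5.20 and 4.59) and *Pi16* (121.7 and 109.7), which fell as well. The part of a change in cell composition in the result was not tested.

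*Has2os*, an antisense long noncoding RNA, overlaps the first part of *Has2* on the opposite strand and fell with it. It was counted 110, 89 and 59 times in WT and 46, 22 and 17 times in the libraries labelled cKO, a log2 fold change of -1.51 (adjusted p = 0.00378, edgeR quasi-likelihood test). The ratio of *Has2os* to *Has2* per kilobase was 0.0507 ± 0.0153 in WT and 0.0538 ± 0.0286 in the libraries labelled cKO (SD, n = 3 each; exact two-sided permutation test, p = 0.8). In the GENCODE annotation of GRCm39 the pair share 400 exonic bases, 8.03% of the exonic length of *Has2*. The library kit was directional, but the strand setting of the counting is not given in the sources used here, so reads of *Has2* and *Has2os* within the shared bases may not have been kept apart.

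*Has1*, on chromosome 17 from 18063585 to 18075467, encodes a synthase that in many cells is expressed at low level and induced by inflammatory cytokines. Its libraries stood at 4.91, 4.78 and 6.54 CPM in WT and at 7.53, 8.7 and 7.0 CPM in the group labelled cKO. The groups did not overlap, although WT replicate 3 came close to the lowest library labelled cKO. The log2 fold change was 0.52 (adjusted p = 0.012, edgeR quasi-likelihood test; standard error 0.154). This call was lost when WT replicate 1 (adjusted p = 0.0594), WT replicate 2 (0.0593) or cKO replicate 2 (0.0749) was left out, with log2 fold changes of 0.44, 0.43 and 0.43.

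*Has3*, on chromosome 8 from 107596874 to 107611198, encodes the third synthase. Its counts were low, from 47 to 70 in WT and from 59 to 81 in the other group. Its log2 fold change of 0.26 did not pass (adjusted p = 0.503, edgeR quasi-likelihood test), and the 95% interval of the difference ran from -0.32 to 0.84. The libraries of the groups did not overlap.

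Because the synthases changed unequally, their proportions within each library differed between the groups. *Has2* made up 94.5%, 95.04% and 93.6% of the summed CPM per kilobase of the 3 synthases in the WT libraries and 80.5%, 77.6% and 80.6% in the libraries labelled cKO. The difference of -14.8 percentage points was larger than the spread within either group (exact two-sided permutation test, p = 0.1, the smallest possible here). Such a share does not depend on how libraries are scaled against each other. The share of *Has1* was 4.80% ± 0.792 in WT and 17.9% ± 1.87 in the libraries labelled cKO (SD, n = 3 each), so *Has2* remained the main synthase transcript in both. The summed level of the 3 synthases was 24.9 ± 1.34 CPM per kilobase in WT and 9.59 ± 0.171 CPM per kilobase in the libraries labelled cKO.

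**Figure D2:**
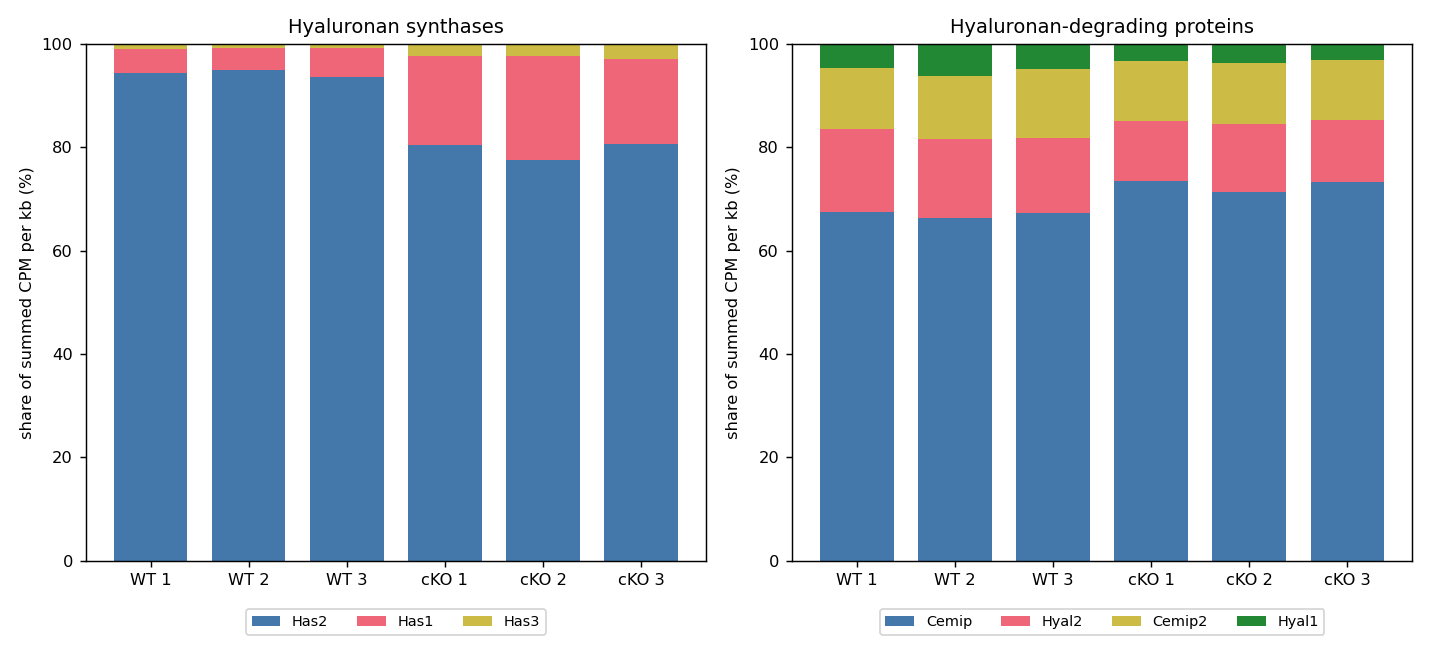
Share of each gene, in percent of the summed CPM per kilobase, among the 3 hyaluronan synthases (left) and among *Cemip*, *Hyal2*, *Cemip2* and *Hyal1* (right), with one stacked bar per library. The share of *Has2* is 93.6% to 95.04% in the WT bars and 77.6% to 80.6% in the bars of the libraries labelled cKO, while *Cemip* takes the largest share on the right in every library.

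*Cemip* encodes a secreted hyaluronan-binding protein required for hyaluronan depolymerisation by fibroblasts. It lies on chromosome 7 from 83582065 to 83735710. It stood at 589, 563 and 597 CPM in WT and at 826, 789 and 836 CPM in the libraries labelled cKO. The lowest library labelled cKO was well above the highest WT library. The means were 582.8 ± 17.6 and 817 ± 24.7 CPM (SD, n = 3 each), with a log2 fold change of 0.49 (adjusted p = 7.61e-09, edgeR quasi-likelihood test; standard error 0.0374). Its membrane-bound relative *Cemip2*, on chromosome 19 from 21755706 to 21835724, stood at 71.4, 72.0 and 82.6 CPM in WT and at 90.2, 90.7 and 91.4 CPM in the libraries labelled cKO. The WT libraries varied more than the others, but no library of one group entered the range of the other. The log2 fold change of *Cemip2* was 0.27 (adjusted p = 0.000849, edgeR quasi-likelihood test; standard error 0.0562).

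The classical hyaluronidases did not pass the test. *Hyal2*, on chromosome 9 from 107445144 to 107449978, encodes a membrane-anchored enzyme that makes the first cuts in long chains. It ranged from 34.6 to 37.7 CPM in WT and from 35.1 to 38.9 CPM in the libraries labelled cKO, so the groups overlapped almost entirely. Its log2 fold change was 0.04 with a 95% interval from -0.09 to 0.18 (adjusted p = 0.663, edgeR quasi-likelihood test). *Hyal1*, on the same chromosome from 107454126 to 107458909, encodes the lysosomal enzyme. Its libraries stood at 12.8, 16.2 and 13.3 CPM in WT and at 11.7, 12.6 and 11.2 CPM in the group labelled cKO. The groups did not overlap, yet WT replicate 1 lay only just above cKO replicate 2. The log2 fold change was -0.25 (95% interval -0.48 to -0.02, adjusted p = 0.0783, edgeR quasi-likelihood test), and without WT replicate 1 the change passed (-0.33, adjusted p = 0.0363). *Hyal1* shares 50.8% of its exonic bases with *Naa80* on the same strand, so its count depends on how reads in shared exons were assigned, and *Hyal3*, which also overlaps it, was counted 20 times at most.

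Within each library *Cemip* accounted for most of the summed level of the 4 degrading genes, 67.0% ± 0.662 in WT and 72.8% ± 1.14 in the libraries labelled cKO (SD, n = 3 each; exact two-sided permutation test, p = 0.1, the smallest possible). The summed level of the 4 was 71.1 ± 1.52 CPM per kilobase in WT and 91.8 ± 1.47 in the libraries labelled cKO. Set against it, the summed level of the synthases was 0.35 ± 0.0219 of that of the degrading genes in WT and 0.105 ± 0.00317 in the libraries labelled cKO. The 3 libraries of each group did not overlap (exact two-sided permutation test, p = 0.1). That separation follows from the fall of *Has2* and the rise of *Cemip*, which make up most of the sums, and is not a further result. The values are ratios of transcripts, and neither enzyme activity nor hyaluronan itself was measured.

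*Cd44* encodes the principal cell-surface receptor for hyaluronan and lies on chromosome 2 from 102641486 to 102732010. It was at 434, 446 and 449 CPM in WT and at 507, 487 and 490.5 CPM in the libraries labelled cKO. The groups did not overlap, but the step between them was small. The log2 fold change was 0.16 (adjusted p = 0.00183, edgeR quasi-likelihood test; standard error 0.0364). An unnamed antisense long noncoding RNA (ENSMUSG00000121264) that covers 3.05% of the exonic bases of *Cd44* went from 0.826 ± 0.0909 to 2.01 ± 0.399 CPM (SD, n = 3 each; adjusted p = 0.00214 for a log2 fold change of 1.28, edgeR quasi-likelihood test). The pair share 207 exonic bases, and the gene length of this RNA is 374 bases. As the strand setting of the counting is not given, reads of *Cd44* there may not have been kept apart from it. *Cd44* is also expressed by macrophages, whose markers moved with the genotype as given above. Each of the 14 macrophage markers rose more than *Cd44*, the smallest rise being 3.33-fold for *Cd14*. The mean ratio of *Cd44* to each of them per kilobase was therefore bound to be lower in the libraries labelled cKO. It was at 0.0333 to 0.335 of the WT value. The lowest value is that for *Aif1*, counted only 6, 4 and 1 times in WT, and the next was 0.0574, for *Fcgr1*. The part of macrophage transcripts in the change of *Cd44* was not tested.

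*Tnfaip6* encodes TSG-6, an inflammation-induced protein that transfers heavy chains of inter-alpha-inhibitor onto hyaluronan and so cross-links it. It lies on chromosome 2 from 51928021 to 51946698. Its libraries stood at 6.29, 6.85 and 6.65 CPM in WT and at 8.72, 10.1 and 10.5 CPM in the group labelled cKO. All libraries labelled cKO were above all WT libraries, with a wider spread among the former. The log2 fold change of 0.57 was the largest rise among the 10 genes (adjusted p = 0.0012, edgeR quasi-likelihood test; standard error 0.123). *Vcan*, on chromosome 13 from 89803431 to 89890628, encodes versican, a large chondroitin sulfate proteoglycan whose amino-terminal domain binds hyaluronan. It ranged from 473 to 545 CPM in WT and from 447 to 476 CPM in the libraries labelled cKO, so the groups overlapped. The log2 fold change of -0.13 passed narrowly (adjusted p = 0.0339, edgeR quasi-likelihood test; standard error 0.0479). It no longer passed without WT replicate 3 (-0.08, adjusted p = 0.0833), without cKO replicate 1 (-0.12, 0.124), without cKO replicate 2 (-0.12, 0.145) or with scaling by library size alone (-0.11, 0.0589).

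Promoter sequence is shown for *Has1*, *Cemip* and *Tnfaip6*, the genes that rose at least 1.4 times and for which the RefSeq promoter table held an entry. Entries were found for 7 of the 10 genes, not for *Has2*, *Has3* or *Cemip2*. The sequences were taken from RefSeq (GRCm38.p6) and each was located by 1 exact match in GRCm39, whose coordinates are given. They are printed 5′ to 3′ on the strand of the gene, without the bases that fall inside the annotated gene, with motif matches in capitals. The *Has1* stretch is chr17:18075468-18075700 on the minus strand, that of *Cemip* is chr7:83735725-83735963 on the minus strand, and that of *Tnfaip6* is chr2:51927875-51927997 on the plus strand.
Has1: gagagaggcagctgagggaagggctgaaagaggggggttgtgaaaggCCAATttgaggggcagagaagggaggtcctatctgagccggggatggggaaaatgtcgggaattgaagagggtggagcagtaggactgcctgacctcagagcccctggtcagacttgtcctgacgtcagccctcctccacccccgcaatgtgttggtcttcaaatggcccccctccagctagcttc
Cemip: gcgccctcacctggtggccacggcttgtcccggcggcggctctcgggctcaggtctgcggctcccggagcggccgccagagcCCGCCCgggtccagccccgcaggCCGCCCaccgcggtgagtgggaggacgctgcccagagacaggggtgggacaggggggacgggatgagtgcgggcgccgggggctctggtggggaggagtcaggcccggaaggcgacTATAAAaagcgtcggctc
Tnfaip6: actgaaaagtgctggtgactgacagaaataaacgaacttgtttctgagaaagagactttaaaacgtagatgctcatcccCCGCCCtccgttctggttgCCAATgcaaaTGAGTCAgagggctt

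In the 250 bases before the RefSeq start, 5 motifs were searched on both strands. *Tnfaip6* held TGANTCA, the AP-1 motif, a motif that 6.75% of all 32851 promoters of the table had, and a CCAAT box close beside it. *Cemip* had a TATAAA match that ended 23 bases before the start, as 12.4% of all promoters had one anywhere in the window, together with GGGCGG matches in a stretch of 75.2% G and C. The median G and C content over all promoters was 52.4%. GGGCGG was present in 32.7% of all promoters and also in that of *Tnfaip6*. *Has1* held only a CCAAT match, which 33.8% of all promoters had. The NF-κB consensus was found in 7.25% of all promoters and, of the 7 with an entry, in that of *Hyal2* alone. The *Hyal2* window, chr9:107446112-107446361, lies inside the annotated gene, which starts at 107445144. None of the 5 motifs was present in all of *Has1*, *Cemip* and *Tnfaip6*, and a match is a description of letters, not a binding site.

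**Figure D3:**
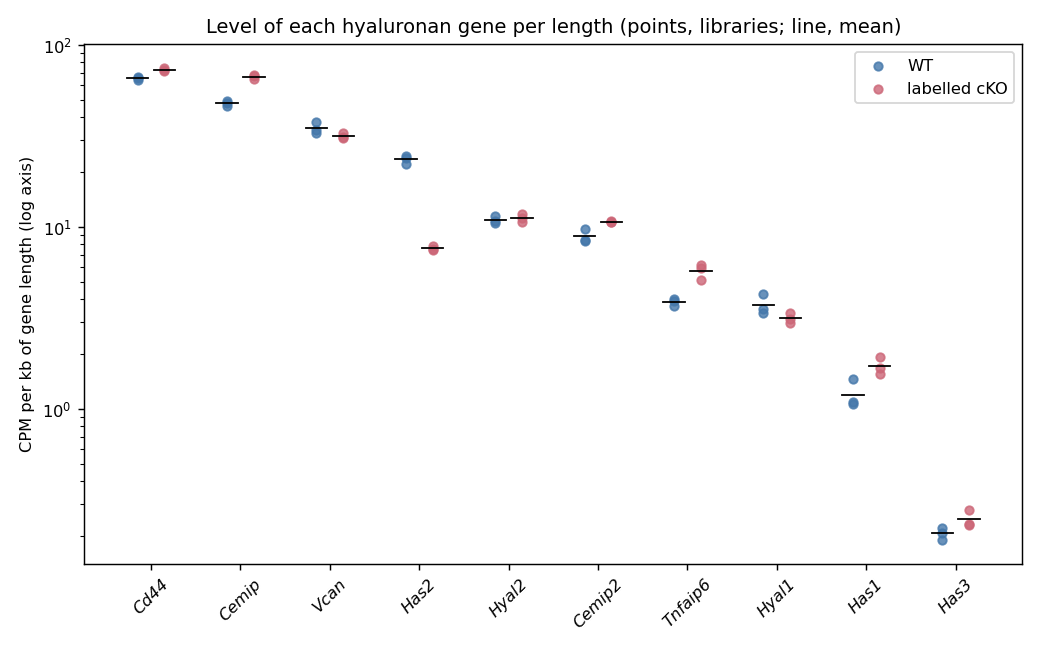
Level of the 10 hyaluronan genes per length, as CPM per kilobase of gene length on a log axis, with one point per library and a line at each mean, ordered by the WT mean. *Cd44*, *Cemip* and *Vcan* lead in both groups, while *Has2* goes from 23.5 in WT, above *Hyal2* and *Cemip2*, to 7.63 in the libraries labelled cKO, below both.

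Levels were compared between genes per kilobase of gene length. In WT the order ran from *Cd44* (65.4 ± 1.16 CPM per kilobase, SD, n = 3) through *Cemip* (47.6 ± 1.44), *Vcan* (34.8 ± 2.58) and *Has2* (23.5 ± 1.27) to *Has3* (0.207 ± 0.0158). Neighbours in this order did not overlap between libraries except *Tnfaip6* and *Hyal1*, at 3.86 and 3.72 CPM per kilobase. In the libraries labelled cKO *Has2* came after *Hyal2* and *Cemip2*, which overlapped each other at 11.2 and 10.7 CPM per kilobase. The other 7 genes kept their place in the order.

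The other genes of the pathway were read from 5 lists with 44 genes, of which 33 had enough counts to be tested. Among these 33, 9 rose and 14 fell, against 20.1% and 19.2% of all tested genes, and the median log2 fold change was -0.07. Beyond a log2 fold change of 1 in size there were 2 higher, *Acan* and *Stab1*, and 3 lower, *Itih2*, *Adamts9* and *Adamts15*. The shares of all tested genes beyond that size were 6.56% higher and 4.64% lower.

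**Figure D4:**
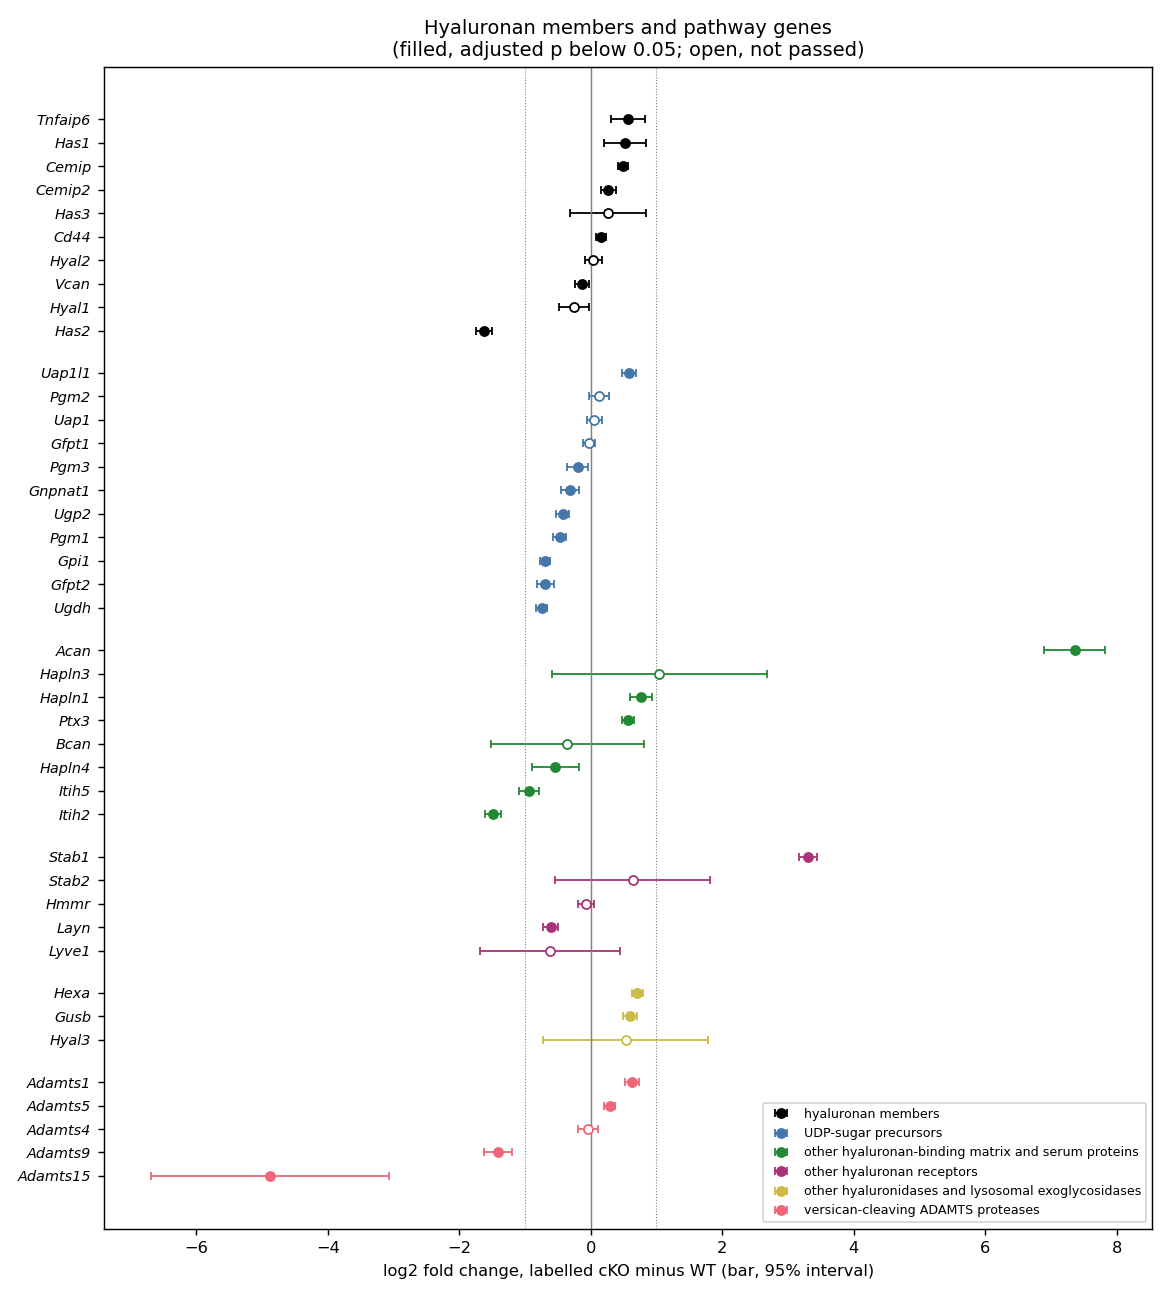
Log2 fold change (x axis, libraries labelled cKO minus WT) with its 95% interval for the 10 hyaluronan genes and tested genes of 5 pathway lists, filled where the adjusted p-value was below 0.05. *Has2* lies at -1.62, apart from the other synthases, and 7 of the 11 genes that lead to UDP-sugars are filled to the left of 0. The value of *Adamts15* rests on 3 libraries labelled cKO with 2 counts at most.

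Among the transcripts of enzymes that lead to UDP-sugars, from which hyaluronan is built, 7 of 11 fell, 1 rose and 3 did not pass, where 19.2% of all tested genes fell and 20.1% rose. Of the 7, *Pgm3* passed narrowly (adjusted p = 0.0445, edgeR quasi-likelihood test) and lost its call with scaling by library size alone (0.0681) and without WT replicate 3 (0.118), cKO replicate 1 (0.221) or cKO replicate 2 (0.0829). Their median log2 fold change was -0.31, and their summed level went from between 2431 and 2579 CPM in WT to between 1747 and 1755 CPM in the libraries labelled cKO. *Ugdh*, the enzyme that oxidises UDP-glucose to UDP-glucuronic acid, stood at 473, 469.8 and 499 CPM in WT and at 293, 283 and 285 CPM in the libraries labelled cKO. The groups were far apart relative to their spread, with a log2 fold change of -0.74 (adjusted p = 4.18e-11, edgeR quasi-likelihood test; standard error 0.0389). *Gpi1*, a glycolytic isomerase that also provides fructose phosphate, fell from 1140 ± 55.7 to 704.8 ± 11.2 CPM (SD, n = 3 each; adjusted p = 8.57e-11, edgeR quasi-likelihood test) and made up most of the drop in the summed level. *Gfpt2*, an isoform of the rate-limiting enzyme of the hexosamine pathway, fell by 0.69 on the log2 scale, from 57.3 ± 2.25 to 35.4 ± 2.35 CPM (SD, n = 3 each; adjusted p = 4.47e-08, edgeR quasi-likelihood test). The other isoform *Gfpt1* was at 155.1 ± 5.91 and 152.5 ± 4.89 CPM, with a log2 fold change of -0.02 and a 95% interval from -0.12 to 0.07. The gene that rose was *Uap1l1*, a relative of the UDP-N-acetylglucosamine pyrophosphorylase *Uap1*, with a log2 fold change of 0.58 (adjusted p = 2.91e-08, edgeR quasi-likelihood test).

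Among the other proteins that bind hyaluronan in the matrix, *Acan* showed the greatest difference. It encodes aggrecan, the proteoglycan that gives cartilage its swelling pressure. It was counted 8, 2 and 6 times in WT and 871, 782 and 922 times in the libraries labelled cKO. WT was thus close to background while every library labelled cKO held at least 782 counts, a log2 fold change of 7.36 (adjusted p = 1.69e-14, edgeR quasi-likelihood test; standard error 0.217). Even so, *Acan* made up 7.88% ± 0.266 of the summed CPM per kilobase of *Acan* and *Vcan* in the libraries labelled cKO (SD, n = 3), so versican remained the more abundant of the pair. Of the 5 tested chondrocyte markers, *Acan* among them, 4 were higher, against 20.1% of all tested genes. *Col2a1*, which encodes the main cartilage collagen, was lower (log2 fold change -0.84). The part of chondrocyte transcripts in the result was not tested. The link protein *Hapln1*, which locks such proteoglycans onto hyaluronan, rose from 14.7 ± 0.876 to 25.0 ± 1.10 CPM (SD, n = 3 each; log2 fold change 0.77, adjusted p = 5.49e-07, edgeR quasi-likelihood test).

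The partners of TSG-6 moved in different directions. *Ptx3*, a pentraxin that binds TSG-6 and inter-alpha-inhibitor and stabilises hyaluronan matrix, was abundant and rose from 570.0 ± 33.9 to 840.7 ± 30.7 CPM (SD, n = 3 each; log2 fold change 0.56, adjusted p = 9.22e-09, edgeR quasi-likelihood test). *Itih2*, which encodes a heavy chain of inter-alpha-inhibitor, stood at 143.5, 147 and 135 CPM in WT and at 46.7, 51.9 and 53.5 CPM in the libraries labelled cKO. Each WT library exceeded every library labelled cKO by more than 2 times, with a log2 fold change of -1.49 (adjusted p = 5.21e-13, edgeR quasi-likelihood test; standard error 0.0565). *Itih5*, another member of that family, fell by 0.94 on the log2 scale (adjusted p = 6.71e-09). *Ambp*, which encodes the bikunin chain of the same complex, reached 4 counts at most in any library, as did *Itih3* with 3. *Hapln4* fell by 0.54 on the log2 scale with overlapping groups (adjusted p = 0.0164), and lost its call without WT replicate 1 (0.0652) or cKO replicate 1 (0.098).

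**Figure D5:**
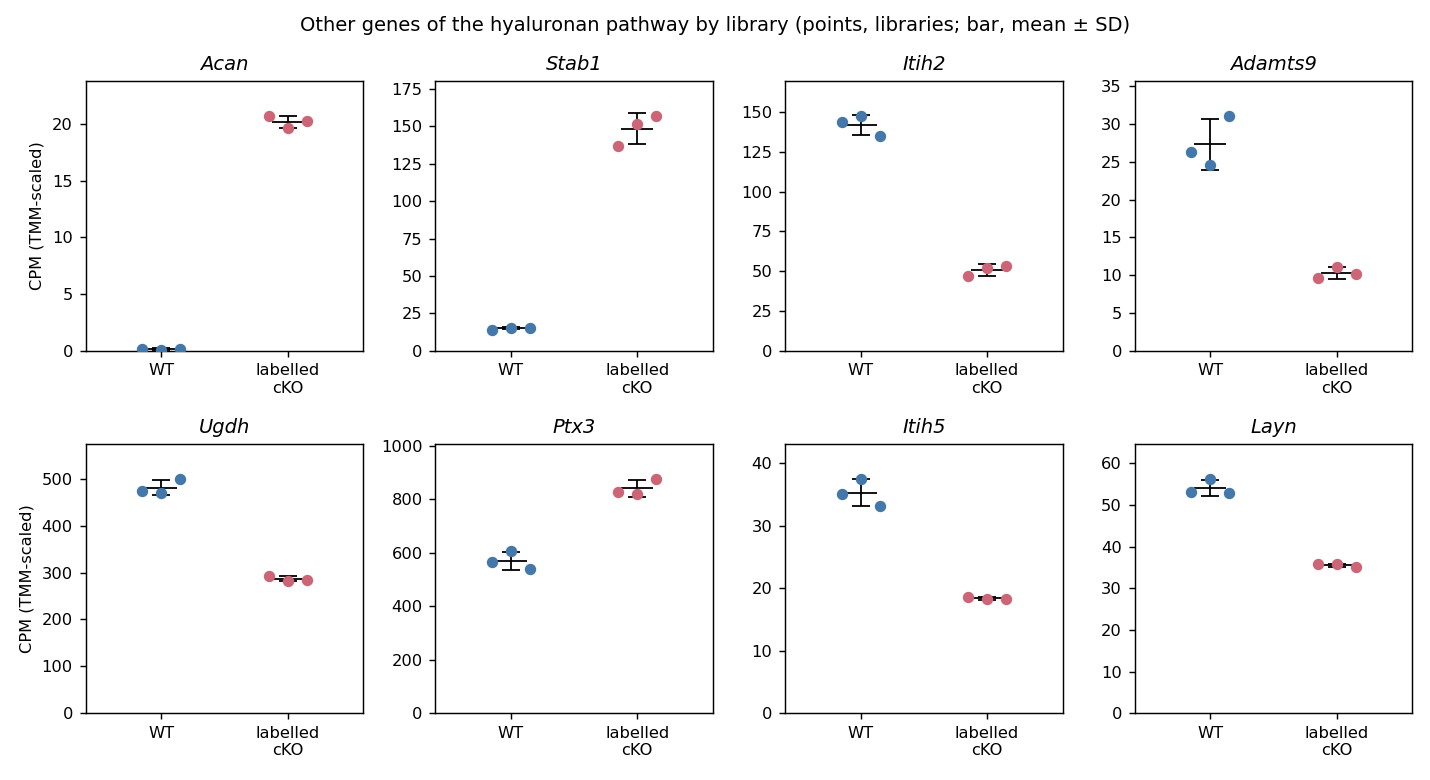
Level in CPM (y axis from 0, scale differing between panels) of 8 further genes of the hyaluronan pathway in the 3 WT libraries and the 3 libraries labelled cKO, with one point per library and the mean ± SD. *Acan*, *Stab1* and *Ptx3* are higher and the other 5 genes lower in the libraries labelled cKO. The groups overlap in none of the 8 panels, but only genes that had passed the test are shown, which favours such separation. The groups stood apart for 25 of the 33 tested pathway genes and for 49.2% of all tested genes.

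Of 5 further hyaluronan receptors, 1 was higher and 1 lower, close to the 20.1% and 19.2% of all tested genes that went in these directions. *Stab1* encodes stabilin-1, a scavenger receptor of macrophages and sinusoidal endothelium. It was at 14.1, 15.4 and 15.5 CPM in WT and at 136.8, 152 and 157 CPM in the libraries labelled cKO. The groups were 9.91-fold apart, with a log2 fold change of 3.31 (adjusted p = 1.3e-16, edgeR quasi-likelihood test; standard error 0.064). Its mean ratio per kilobase to the 14 macrophage markers, which also rose, was higher in the libraries labelled cKO for 9 and lower for 5. It ran from 0.289 of the WT value for *Aif1* to 2.98 times for *Cd14*. *Aif1* was counted only 6, 4 and 1 times in WT, and the next lowest ratio was 0.513, for *Fcgr1*. The part of macrophage transcripts in the rise of *Stab1* was not tested. *Layn*, which encodes the membrane lectin layilin, fell from 54.1 ± 1.86 to 35.5 ± 0.375 CPM (SD, n = 3 each; adjusted p = 6.86e-08 for a log2 fold change of -0.61, edgeR quasi-likelihood test). *Hmmr*, whose product RHAMM also serves the mitotic spindle, was at 38.3 ± 0.129 and 36.4 ± 0.89 CPM, with a 95% interval of its log2 fold change from -0.20 to 0.05. The endothelial and lymphatic receptors *Lyve1* and *Stab2* were near background, at 12 to 32 and 8 to 15 counts per library.

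Exoglycosidases finish hyaluronan breakdown in the lysosome. *Hexa*, which encodes a hexosaminidase subunit, rose from 173.9 ± 2.88 to 283.7 ± 4.66 CPM and *Gusb*, beta-glucuronidase, from 108.5 ± 5.20 to 164.2 ± 6.28 CPM (SD, n = 3 each), or 0.71 and 0.60 on the log2 scale (adjusted p = 9.52e-11 and 1.54e-08, edgeR quasi-likelihood test). *Hyal4*, *Hyal6* and *Spam1* were at 0 in all 6 libraries.

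The proteases that cut versican differed among themselves. *Adamts1* rose from 233.2 ± 19.5 to 359.2 ± 13.0 CPM and *Adamts5* from 590.6 ± 26.9 to 720.2 ± 4.69 CPM (SD, n = 3 each), or 0.62 and 0.29 on the log2 scale (adjusted p = 2.46e-08 and 8.84e-06, edgeR quasi-likelihood test). *Adamts9* fell, from 26.3, 24.5 and 31.0 CPM to 9.58, 11.1 and 10.2 CPM, a log2 fold change of -1.41 (adjusted p = 2.43e-09, edgeR quasi-likelihood test). *Adamts15* was counted 24, 26 and 22 times in WT and 0, 0 and 2 times in the libraries labelled cKO (adjusted p = 0.000164, edgeR quasi-likelihood test). Taking 3 counts per library as the floor, it was at least 7.63-fold lower there, or at least 3.82-fold with a floor of 6 counts. *Adamts4* was at 28.9 ± 1.44 and 27.9 ± 1.77 CPM, with a 95% interval of its log2 fold change from -0.20 to 0.11.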

How the data were processed

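For 6 libraries, 3 of each genotype, RNA had been sequenced by the authors as read pairs. The reads had been aligned to GRCm39 (mm39) with HISAT2 2.0.5. They had been counted on genes with featureCounts (1.55.0-p3 in the submitters' processing notes, and another release in the methods). The deposited values are raw counts per gene, not normalized, with a gene length in bases. Even numbers made up 63.4% to 65.7% of counts between 1 and 10, which may mean that read mates were counted singly, so the floor for a gene near 0 is given as 3 and as 6 counts and covers counting error only.

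Groups were taken from the sample titles. From the counts, filterByExpr, TMM scaling, glmQLFit and glmQLFTest of edgeR 4.0.16 (R 4.3.3) were run with genotype as the only term, with Benjamini-Hochberg adjustment over 17146 genes. A log2 fold change is cKO minus WT. CPM are counts per 1000000 of the TMM-scaled library size. On simulated data (17146 genes), edgeR recovered 68 of 100 genes changed by 1 and 93 of 100 changed by 2 on the log2 scale. There 7 unchanged genes passed. The simulated share of changed genes was far below the 39.3% called in the real data. The adjusted cutoff depends on that share, so these recoveries do not carry over to the real comparison. Replicates differed by more than sampling noise (chi-square per gene 4.8 to 13.9) and were counted separately. Alternatives were DESeq2 1.42.0, limma-voom (limma 3.58.1), other scalings, filters and limits, a replicate block, each library left out and, added after the data had been seen, halved counts. Named were all 10 genes, genes overlapping them, pathway genes changed by at least 1 on the log2 scale and otherwise up to 3 per list and direction with the smallest p-values. Pathway genes that did not pass, and *Pgm3*, which passed narrowly, were named after their values had been seen. The members and lists were chosen with earlier results of these data known. The values of 1 listed gene are not reported here. Ratios to marker genes were computed after the data had been seen. Promoters came from RefSeq, exons from GENCODE M39.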

Additional observations from a re-analysis of the deposited data

How the results depend on the processing

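The direction of all 10 hyaluronan genes held under all 14 alternatives. Of the 140 values, 132 kept their side of the threshold, 7 lost it (*Has1* and *Vcan*) and 1 gained it (*Hyal1*). With each library left out in turn, 4 to 5 of the 10 genes were higher and 1 to 3 lower, the pathway lists had 9 higher and 12 to 14 lower, and the share of *Has2* differed by -15.3 to -13.8 percentage points. With scaling by library size only, 1 of the 10 was lower. With a log2 fold change of at least 1 required, 0 were higher and 1 lower, and 2 and 3 in the lists. As a share of raw counts the difference for *Has2* was -16.1 points. Of 453 values of the pathway genes, 446 kept their side, 6 lost it and 1 reversed, *Bcan*, whose log2 fold change ran from -0.77 to 0.40 with 1 library left out. Of the genes that overlap a member, 3 reversed with 1 library left out, *Gm4117* (-0.30 to 0.037), *Chtf8* (-0.83 to 0.27) and *Naa80* (-0.12 to 0.00056), none of which passed in any fit. The cause was not tested.

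Replicate numbers are shared between the genotypes, but libraries of the same number did not deviate together (correlations of -0.0055, 0.0023 and -0.0103). With the replicate block 5 of the 10 genes were higher and 2 lower, and no call of a named gene changed. Precision was low for *Has3*, *Hyal3*, *Hapln3*, *Bcan*, *Lyve1* and *Stab2*, whose counts were 0 to 81 per library and whose intervals all exceed a width of 1 on the log2 scale. Intervals wider than 1 were also found for genes that passed, namely *Adamts15* (-6.68 to -3.07), *Has2os* (-2.31 to -0.71) and ENSMUSG00000121264 (0.65 to 1.91). Whether depth or the spread between libraries set the precision was not tested.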
